A study of Sus scrofa with 2 samples.

Results

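Genes of the sarcomere and of the contractile machinery of muscle were followed in RNA-seq data from the pig cochlea. The tissue dissected was the lateral wall, which contains the stria vascularis (SV), and the samples are called SVs here. The 40 genes were chosen by name, with earlier results of these data known. They encode myosin heavy and light chains, muscle actins and actinins, the troponin and tropomyosin subunits, Z-disc and filament proteins and markers of smooth muscle. A feature of the expression table carried the name of 33 of them, among 27622 features in all, and MYL2, MYH4, MYH8, ACTN3, TNNI2, TNNT3 and TTN were not analysed here. The genes were divided by their textbook expression into 5 classes, namely cardiac or slow, fast skeletal, smooth muscle, pan-striated, and striated and smooth.

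The study compared the transcriptomes of a Mitf R/r (heterozygous) SV and a Mitf r/r (homozygous) SV, with 1 library each. R is the normal allele of Mitf, the gene of a transcription factor on which melanocytes depend, and r is the recessive allele carried by albino, deaf Rongchang pigs. The heterozygous SV therefore also carried 1 copy of the r allele, and no R/R library was compared. The sample labels place both SVs at postnatal day 1, whereas the written description of the RNA-seq assay places them at embryonic day 85, and the sources used here do not say how many animals gave each library.

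In striated muscle, myosin heavy chains pull on thin filaments of actin, tropomyosin and troponin. Calcium binding to troponin C moves tropomyosin and lets the myosin heads attach, and Z-disc proteins hold neighbouring filaments in register. Fibres differ in the paralogs they use: hearts and slow fibres share a set of myosin and troponin genes, and fast fibres use another. Smooth muscle has no sarcomeres and uses its own myosin, actins and calponin. The lateral wall of the cochlea is not a muscle, but its vessels carry smooth muscle cells and pericytes, and the middle ear muscles lie nearby.

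Expression was given as RPKM, that is, reads scaled to the length of the gene model and to the size of the library. The reads behind the values were worked out from the ratios between low values, and the totals that fitted them were 15829244 reads (heterozygous) and 14258672 reads (homozygous). A read on 1 kb was then worth 0.0632 RPKM in the heterozygous SV and 0.0701 RPKM in the homozygous SV. Genes were compared as the log2 ratio of RPKM, r/r over R/r, where they were above 0 in both SVs and reached 1 RPKM in at least 1 of them. Brackets after a log2 ratio give its 95% exact Clopper-Pearson interval, made from the reads of the homozygous library among those of both. Such an interval covers nothing but counting error. As each genotype had 1 library, there was no replicate error and no test, and the ratios compare these libraries, since genotype, animal and dissection cannot be told apart. In bulk tissue, fewer cells of a type cannot be told apart from less RNA per cell either.

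Both SVs expressed some genes of the lateral wall at high levels. CLDN11, the claudin of basal cells, had 840 RPKM in the heterozygous SV and 706 RPKM in the homozygous SV, and SLC12A2, the marginal cell chloride cotransporter, had 312 and 334 RPKM. The MITF feature had 51.7 and 37.8 RPKM. Among the lists of markers, the 8 melanocyte markers chosen here differed most. Their summed level was 281 RPKM in the heterozygous SV and 4.79 RPKM in the homozygous SV. The paper reported that other markers of melanocytes or intermediate cells, among them KIT and MUM1, remained in the homozygous SV. According to the paper, most of these were not significantly lower there. Intervals lay below 0 for 7 of 7 compared markers of the list chosen here, against 14.6% of all features compared. PMEL, RAB38, SLC45A2, TRPM1 and TYR reached 1 RPKM in the heterozygous SV only, so their entry was tied to a low homozygous value. Every compared marker is also among the genes that the paper lists as differing between these libraries, so their direction was known beforehand. The count describes these markers and was not read as an excess over the background.

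Most muscle genes were under 10 RPKM in both SVs. A level of 10 RPKM was reached by 9 of the 33 genes in at least 1 SV, and 9 had no more than 3 reads in each library. The share of all features at these levels was not computed, so the counts describe the muscle genes alone. A total of 17 genes met the minimum for comparison, as did 16331 of all 27622 features. The myosin gene MYH1 and the Z-disc gene MYPN met it through the heterozygous SV only, so that their entry into the comparison was tied to a low homozygous value. Of the other 16 genes, 11 were above 0 in both SVs but under 1 RPKM, 3 were listed at 0 in the heterozygous SV and 2 were listed at 0 in both. The compared genes carried 256 reads at the median, with a range of 53 to 15427, against 448 reads at the median of all features compared.

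Among the 17 compared genes, 5 were at least 2-fold apart, which is 29.4% of them against 3.99% of the 16331 features compared. MYPN, MYH1, TNNC1 and TNNT1 were lower in the homozygous SV (23.5%, against 2.2% of all features), and MYH6 was higher (5.88%, against 1.78%). The interval left out 0 for 9 genes, against 25.8% of all features. It lay below 0 for 6 genes (35.3%, against 14.6%) and above 0 for 3 genes (17.6%, against 11.2%). It spanned 0 for the other 8 genes, for which no difference was detectable at this depth. The whole interval lay beyond 2-fold lower for MYPN and MYH1, as for 0.367% of all features, and beyond 2-fold higher for no muscle gene, with 0.294% of all features there. Since MYPN and MYH1 were compared only because of their heterozygous level, the shares of lower genes are descriptions and were not read as an excess over the background. The median log2 ratio of the 17 genes was -0.10, and that of all features compared was -0.02.

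**Figure D1:**
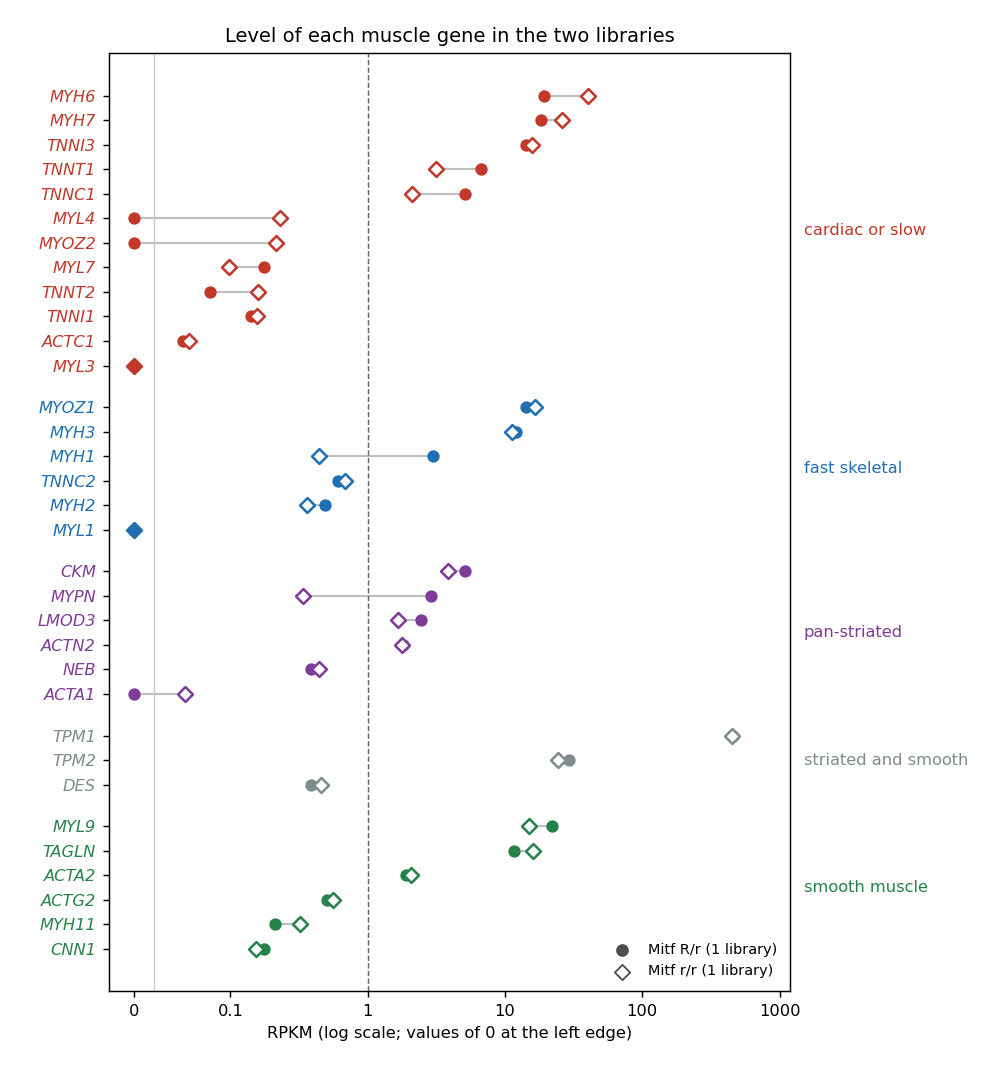
RPKM on a log scale (values of 0 at the left edge, dashed line at 1 RPKM) for the 33 muscle genes, 1 row per gene, coloured by class, with the Mitf R/r library as filled circles and the Mitf r/r library as open diamonds. TPM1 stands far to the right in both libraries at 457 and 452 RPKM, and the longest lines between libraries among genes above 1 RPKM belong to MYH1 and MYPN.

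The cardiac or slow class held the gene that was 2-fold higher and a pair of those that were 2-fold lower. MYH6, the alpha cardiac myosin heavy chain, had 19.2 RPKM (805 reads) in the heterozygous SV and 40.1 RPKM (1513 reads) in the homozygous SV. The homozygous level was 2.09-fold higher, a log2 ratio of 1.06 (0.94 to 1.19). MYH7, the beta chain of ventricles and slow fibres, had 18.3 RPKM (589 reads) and 26.3 RPKM (760 reads), with a log2 ratio of 0.52 (0.36 to 0.68). Both cardiac myosin heavy chains were thus higher in the homozygous library. A larger ratio than that of MYH6 was found for 1.59% of the features compared, and for 0.118% of the 2542 features with at least as many reads.

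The identity of these myosin features is uncertain, because the heavy chain genes are near-identical over long stretches and their reads could be split between copies. The feature named MYH7 in the deposited values (ENSSSCG00000002029) is named MYH6 in Ensembl, beside the feature named MYH6 (ENSSSCG00000030999). Their reads were therefore also summed, an alternative chosen after seeing the data. Together they had 1394 reads in the heterozygous SV and 2273 reads in the homozygous SV, a log2 ratio of 0.86 (0.76 to 0.95). The level of the MYH6 feature over that of the MYH7 feature was 1.05 in the heterozygous SV and 1.53 in the homozygous SV.

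The troponins TNNC1 and TNNT1 were lower in the homozygous library, unlike the heavy chains, whereas the interval of TNNI3 spanned 0. TNNC1, the calcium-binding subunit, had 5.08 RPKM (40 reads) in the heterozygous SV and 2.12 RPKM (15 reads) in the homozygous SV, 2.40-fold lower with a log2 ratio of -1.26 (-2.23 to -0.38). TNNT1, the tropomyosin-binding subunit of slow fibres, had 6.66 RPKM (89 reads) and 3.16 RPKM (38 reads), 2.11-fold lower with a log2 ratio of -1.08 (-1.67 to -0.51). The intervals of both reached to less than 2-fold. Summed, TNNC1 and TNNT1 had 129 reads in the heterozygous SV and 53 reads in the homozygous SV, a log2 ratio of -1.13 (-1.62 to -0.66). TNNI3, the inhibitory subunit of the heart, had 14.3 RPKM (60 reads) and 15.6 RPKM (59 reads), with a log2 ratio of 0.13 (-0.42 to 0.67).

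TNNI3 and TNNT1 are adjacent genes in the RefSeq order of assembly Sscrofa11.1, yet their ratios differed. The level of TNNI3 over that of TNNT1 was 2.15 in the heterozygous SV and 4.94 in the homozygous SV, and TNNI3 over TNNC1 went from 2.81 to 7.38. The slow and cardiac partners TNNI1 and TNNT2 were near the limit of detection. TNNI1, the slow inhibitory subunit, had 2 reads in each library (0.141 and 0.156 RPKM), and TNNT2, the cardiac tropomyosin-binding subunit, had 1 and 2 reads (0.0711 and 0.158 RPKM).

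The rest of the cardiac or slow class was close to absent from both libraries. ACTC1, the cardiac actin, had 1 read in each library (0.0450 and 0.0500 RPKM). MYL7, the atrial regulatory light chain, had 2 reads in the heterozygous library and 1 in the homozygous library (0.177 and 0.0981 RPKM). MYL3, the essential light chain of ventricles and slow fibres, was listed at 0 in both. MYL4, the atrial essential light chain, was listed at 0 in the heterozygous SV, a count that allows up to 0.311 RPKM, and had 0.230 RPKM (2 reads) in the homozygous SV. MYOZ2, a Z-disc partner of calcineurin, was listed at 0 in the heterozygous SV, which allows up to 0.580 RPKM, and had 0.214 RPKM (1 read) in the homozygous SV. The heavy chains were therefore detected at 18.3 RPKM or more without MYL3, MYL4, MYL7 or ACTC1 at comparable levels, and the ventricular regulatory light chain MYL2 was not among the genes compared. Over the whole class the summed level was 64.0 RPKM in the heterozygous SV and 88.1 RPKM in the homozygous SV, and the median log2 ratio of its 5 compared genes was 0.13. That median was 0.79 for the class without its troponins, an alternative chosen after seeing the data.

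Fast skeletal genes were carried by MYH3 and MYOZ1. MYH3, the embryonic myosin heavy chain, had 12.03 RPKM (1136 reads) in the heterozygous SV and 11.2 RPKM (956 reads) in the homozygous SV, with a log2 ratio of -0.10 (-0.22 to 0.03). MYOZ1, the Z-disc calcineurin partner of fast fibres, had 14.3 RPKM (317 reads) and 16.5 RPKM (331 reads), with a log2 ratio of 0.21 (-0.01 to 0.44). Neither interval left out 0.

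MYH1, the heavy chain of adult fast fibres, differed from both. Its level was 2.98 RPKM (208 reads) in the heterozygous SV and 0.445 RPKM (28 reads) in the homozygous SV, 6.69-fold lower with a log2 ratio of -2.74 (-3.37 to -2.17). A lower ratio was found for 0.184% of the features compared, among which MYH1 was counted only because of its heterozygous level. This feature (ENSSSCG00000018005) is MYH1 in the deposited values and MYH8, the perinatal heavy chain, in Ensembl, so the lower level belongs to a fast-type myosin whose identity is uncertain. The level of MYH3 over that of MYH1 was 4.04 in the heterozygous SV and 25.3 in the homozygous SV.

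The neighbouring fast gene MYH2, for the heavy chain of fast oxidative fibres, had 0.485 RPKM (45 reads) and 0.359 RPKM (30 reads). Its log2 ratio of -0.43 (-1.15 to 0.26) spanned 0. MYH1, MYH2 and MYH3 together had 1389 reads in the heterozygous SV and 1014 reads in the homozygous SV, a log2 ratio of -0.30 (-0.42 to -0.19). TNNC2, the calcium-binding subunit of fast fibres, had 7 reads in each library (0.612 and 0.680 RPKM), and MYL1, the fast essential light chain, was listed at 0 in both. The summed level of the fast class was 30.4 RPKM in the heterozygous SV and 29.3 RPKM in the homozygous SV, and the median log2 ratio of its 3 compared genes was -0.10.

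Among genes shared by all striated muscle, MYPN stood apart. MYPN (myopalladin) ties nebulin to alpha-actinin at the Z-disc. It had 2.90 RPKM (182 reads) in the heterozygous SV and 0.336 RPKM (19 reads) in the homozygous SV, 8.63-fold lower with a log2 ratio of -3.11 (-3.87 to -2.42). A lower ratio was found for 0.141% of the features compared, among which MYPN was counted only because of its heterozygous level. A further feature named MYPN was listed at 0 in both SVs.

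The binding partners of MYPN were not lower to that degree. ACTN2, the alpha-actinin of the Z-disc, had 1.80 RPKM (136 reads) in the heterozygous SV and 1.77 RPKM (120 reads) in the homozygous SV, with a log2 ratio of -0.03 (-0.40 to 0.34). NEB, the nebulin that spans the thin filament, had 0.388 RPKM (52 reads) and 0.439 RPKM (53 reads), with a log2 ratio of 0.18 (-0.40 to 0.76). NEB was under 1 RPKM in both SVs and was not among the compared genes. The intervals of ACTN2 and NEB did not meet that of MYPN. As MYPN was compared only because of its heterozygous level and had the lowest ratio, no conclusion was drawn from this gap.

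CKM, the muscle creatine kinase, had 5.08 RPKM (59 reads) in the heterozygous SV and 3.82 RPKM (40 reads) in the homozygous SV, with a log2 ratio of -0.41 (-1.03 to 0.19). LMOD3, which nucleates thin filaments, had 2.46 RPKM (33 reads) and 1.65 RPKM (20 reads), with a log2 ratio of -0.57 (-1.45 to 0.27). Both were lower in the homozygous library by less than their counting error. In the RefSeq order of Sscrofa11.1, a single gene, FRMD4B, lies between LMOD3 and MITF, and its log2 ratio was -0.26 (-0.36 to -0.16). ACTA1, the skeletal actin that is among the most abundant transcripts of muscle fibres, was listed at 0 in the heterozygous SV, which allows up to 0.127 RPKM, and had 0.0470 RPKM (1 read) in the homozygous SV. The summed level of the pan-striated class was 12.6 RPKM in the heterozygous SV and 8.06 RPKM in the homozygous SV, with 1 of 4 compared intervals below 0, that of MYPN, and a median log2 ratio of -0.49.

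**Figure D2:**
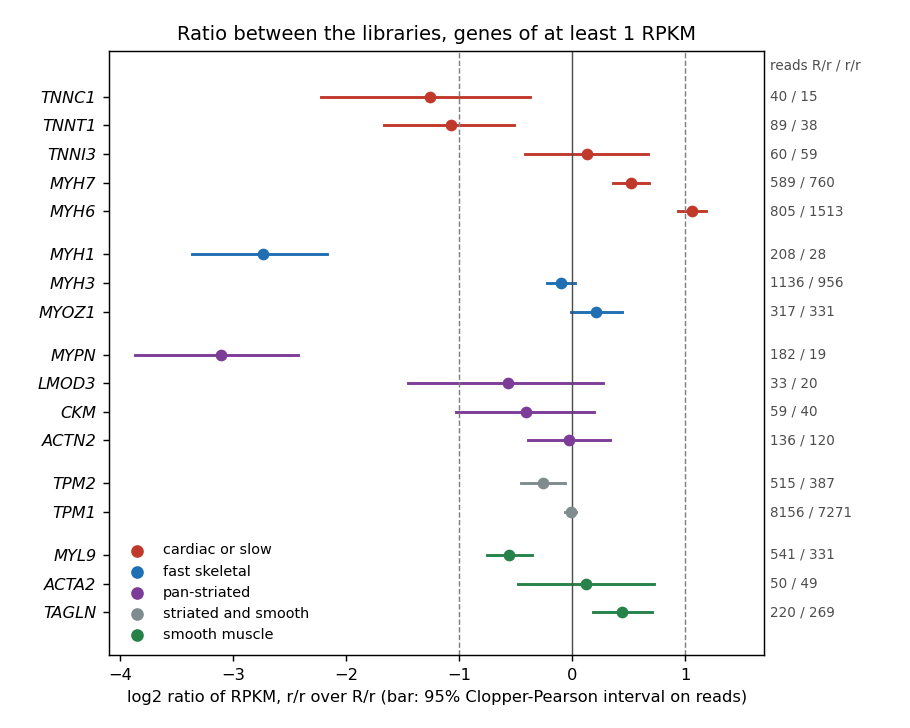
Log2 ratio of RPKM, r/r over R/r, of the 17 compared muscle genes by class (points), with the 95% Clopper-Pearson interval on reads (bars), the reads of each library at the right and dashed lines at 2-fold. The bars of MYPN and MYH1 lie wholly beyond 2-fold lower, those of TNNC1 and TNNT1 cross the lower line, and that of MYH6 (0.94 to 1.19) crosses the upper line.

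The tropomyosins, which striated and smooth muscle and many other cells use, were the highest of the muscle genes. TPM1 had 457 RPKM (8156 reads) in the heterozygous SV and 452 RPKM (7271 reads) in the homozygous SV. Its log2 ratio was -0.01 within a narrow interval (-0.06 to 0.03), and its sign turned when the libraries were scaled by the median of all features. TPM2 had 29.4 RPKM (515 reads) and 24.5 RPKM (387 reads), with a log2 ratio of -0.26 (-0.46 to -0.07). TPM1 over TPM2 was 15.5 in the heterozygous SV and 18.4 in the homozygous SV. DES, the desmin filament of muscle cells, had 0.385 RPKM (14 reads) and 0.458 RPKM (15 reads).

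In the smooth muscle class, markers lay on opposite sides of 0. MYL9, a regulatory light chain of smooth muscle and non-muscle myosin, had 21.9 RPKM (541 reads) in the heterozygous SV and 14.9 RPKM (331 reads) in the homozygous SV, with a log2 ratio of -0.56 (-0.76 to -0.36). TAGLN, the actin-binding transgelin, had 11.7 RPKM (220 reads) and 15.9 RPKM (269 reads), with a log2 ratio of 0.44 (0.18 to 0.70). ACTA2, the smooth muscle alpha-actin, had 1.92 RPKM (50 reads) and 2.09 RPKM (49 reads), with a log2 ratio of 0.12 (-0.48 to 0.72). TAGLN over MYL9 was 0.534 in the heterozygous SV and 1.07 in the homozygous SV.

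The genes most restricted to smooth muscle were low. MYH11, its myosin heavy chain, had 0.210 RPKM (8 reads) in the heterozygous SV and 0.321 RPKM (11 reads) in the homozygous SV. ACTG2, the enteric actin, had 5 reads in each library (0.505 and 0.560 RPKM). CNN1, the smooth muscle calponin, had 5 reads in the heterozygous library and 4 in the homozygous library (0.174 and 0.155 RPKM). The summed level of the class was 36.4 RPKM and 33.9 RPKM, and the median log2 ratio of its 3 compared genes was 0.12. Over all 4 muscle actins of both kinds of muscle, ACTA1, ACTA2, ACTC1 and ACTG2, there were 56 reads in each library.

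**Figure D3:**
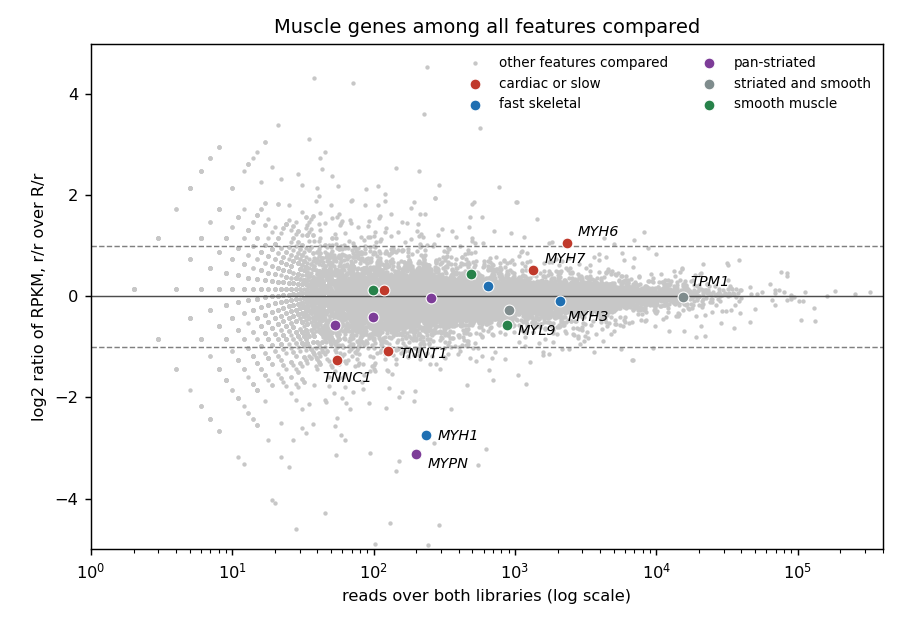
Log2 ratio of RPKM, r/r over R/r, against the reads over both libraries (log scale) for all features compared (grey) and the compared muscle genes (coloured by class), with dashed lines at 2-fold and 10 features beyond the range of the vertical axis. MYPN and MYH1, compared only because of their Mitf R/r level, lie below nearly all features with similar reads, and MYH6 lies above nearly all of them.

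Within each kind of muscle, the defining markers gave different answers. For skeletal muscle, MYH3 and CKM were above 1 RPKM and ACTA1 was at 0 and 1 read, while MYH8 and TNNT3 were not analysed. For smooth muscle, ACTA2 was above 1 RPKM in both SVs, whereas MYH11 and CNN1 were under 1 RPKM in both. For heart, MYH6 and TNNI3 were above 14 RPKM in both SVs, whereas MYL7 had 2 reads and 1 read and NPPA, the atrial hormone, was listed at 0 in both. A list of 7 cardiac regulators and hormones held no compared gene. GATA4, NKX2-5, NPPA, TBX5 and TBX20 were listed at 0 in both SVs, and HAND2 and NPPB had 1 read each in the heterozygous library only. The myogenic factors MYOD1 and MYOG had 1 read each, in the homozygous library, and MYF6 was listed at 0 in both.

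Other genes of the sarcomere were also low and divided in direction. Of 30 genes listed, 28 had a feature and 10 were compared, with a median log2 ratio of -0.31 and none 2-fold apart. An interval lay below 0 for 3 of the compared genes, above for 1 and across it for 6. Of all features compared, 14.6% had an interval below 0 and 11.2% above. Lower were MYBPC1, the slow myosin-binding protein C, at 2.35 and 1.38 RPKM (log2 ratio -0.77, -1.22 to -0.33), MYH7B, an ancient slow-type heavy chain, at 8.997 and 6.06 RPKM (-0.57, -0.86 to -0.29), and NRAP, an actin-anchoring protein, at 1.905 and 1.397 RPKM (-0.45, -0.90 to -0.005). KLHL40, which stabilises LMOD3 and nebulin, was higher at 14.7 and 20.1 RPKM (0.45, 0.13 to 0.78). TCAP, the titin cap, had 11.4 and 9.56 RPKM, and TRIM63, a muscle ubiquitin ligase, had 17.8 and 19.3 RPKM, with intervals across 0. TMOD1, which caps thin filaments, and CAPN3, a muscle protease, had log2 ratios of 0.14 (-0.08 to 0.36) and 0.20 (-0.37 to 0.78).

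Genes of calcium handling and the endplate numbered 21, with 19 features and 7 compared genes, and a median of 0.31. An interval lay above 0 for 2 compared genes and below for none, against 11.2% and 14.6% of all features compared. RYR2 had an interval below 0 (-0.34, -0.66 to -0.03) on 200 and 142 reads. It was under 1 RPKM in both SVs over its 13935 bp, so it was not counted. PLN, the phospholamban that restrains the calcium pump of slow and cardiac muscle, had 1.72 RPKM (20 reads) and 3.34 RPKM (35 reads), with a log2 ratio of 0.96 (0.13 to 1.83). CHRNB1, an acetylcholine receptor subunit, had 8.45 and 10.5 RPKM, with a log2 ratio of 0.31 (0.03 to 0.59). STAC3, an adaptor of excitation-contraction coupling, had a log2 ratio of 0.55 (-0.09 to 1.19), and CASQ1, the calcium store protein of fast fibres, had 0.38 (-0.26 to 1.03). At the lower end, MUSK, the endplate kinase, had -0.44 (-0.92 to 0.03), and JPH1, which holds the triad together, had -0.07 (-0.59 to 0.45). ATP2A2, the slow calcium pump that many other cells also use, had 33.5 and 32.1 RPKM (-0.06, -0.31 to 0.19).

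The summed level of muscle metabolism genes was 1585 RPKM in the heterozygous SV and 2018 RPKM in the homozygous SV, most of it from CA3. Of 12 genes, 11 had a feature and 10 were compared, with a median of 0.09. An interval lay above 0 for 1 compared gene and below for none, against 11.2% and 14.6% of all features compared. CA3, the carbonic anhydrase of slow fibres and of some other tissues, had 1296 and 1712 RPKM, with a log2 ratio of 0.40 (0.38 to 0.42). CKMT2, the muscle mitochondrial creatine kinase, had 0.43 (-0.51 to 1.38), and PYGM, the muscle glycogen phosphorylase, had 0.22 (-0.03 to 0.46). COX7A1, a respiratory chain subunit of muscle, had 209 and 223 RPKM, and PFKM, the muscle phosphofructokinase, had 55.5 and 59.0 RPKM. PVALB, the calcium buffer of fast fibres, was 2-fold lower at 3.81 and 1.69 RPKM, but rested on 10 and 4 reads (-1.17, -3.30 to 0.62). PGAM2 and COX6A2, of muscle glycolysis and respiration, both had log2 ratios of -0.07 with intervals across 0.

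Myogenic regulators included 9 genes with a feature of 12, and 5 were compared, with a median of -0.06. An interval lay below 0 for 1 compared gene and above for 2, against 14.6% and 11.2% of all features compared. MEF2C, a muscle and endothelial transcription factor, had 16.0 and 12.6 RPKM (-0.35, -0.57 to -0.13), and MSTN, the muscle growth inhibitor myostatin, had 6.97 and 5.76 RPKM (-0.27, -0.66 to 0.11). MEF2A had 29.3 and 31.1 RPKM (0.09, 0.01 to 0.17), and MEF2D had 19.3 and 18.5 RPKM (-0.06, -0.16 to 0.04). PAX3, which acts in muscle precursors and in melanocytes, had 1.09 RPKM in the heterozygous SV and was listed at 0 in the homozygous SV, a count that allows up to 0.117 RPKM.

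Smooth muscle and pericyte genes outside the class numbered 14, with 12 features and 10 compared genes, and a median of -0.08. An interval lay below 0 for 4 compared genes, above for 1 and across it for 5. Of all features compared, 14.6% had an interval below 0 and 11.2% above. The extremes were KCNJ8 at -0.41 (-1.39 to 0.54), a pericyte potassium channel, ANPEP at -0.37 (-0.50 to -0.23) and SMTN, smoothelin, at -0.22 (-0.41 to -0.03). At the other end were MYLK, the kinase of the MYL9 light chain, at 0.45 (0.06 to 0.85), ABCC9, the partner of KCNJ8, at 0.06 (-0.16 to 0.28) and RGS5, a pericyte regulator of G proteins, at 0.00 (-0.14 to 0.14). MYLK was higher and MYL9 lower in the homozygous library. RGS5 had 84.9 and 85.04 RPKM, and PDGFRB, the pericyte receptor, had 71.3 and 65.9 RPKM.

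Non-muscle relatives of the muscle genes were far higher. Of 16 genes listed, 12 had a feature and were compared. They summed to 1714 RPKM in the heterozygous SV and 1709 RPKM in the homozygous SV, with a median log2 ratio of 0.01. Intervals lay below 0 for 5 genes and above for 3, against 14.6% and 11.2% of all features compared. As these genes carried many reads, the intervals of small ratios such as that of MYH14 left out 0. ACTN1, the non-muscle alpha-actinin, was lower at 51.4 and 35.3 RPKM (-0.54, -0.62 to -0.46), followed by TAGLN2 (-0.19, -0.31 to -0.07) and CKB, the brain creatine kinase (-0.15, -0.30 to -0.01). MYL6, the light chain that works beside MYL9, was higher at 137 and 156 RPKM (0.19, 0.09 to 0.28), as were MYL12B (0.12, 0.05 to 0.18) and MYH14 (0.10, 0.02 to 0.18). The lower level of MYL9 was thus not shared by MYL6 and MYL12B.

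**Figure D4:**
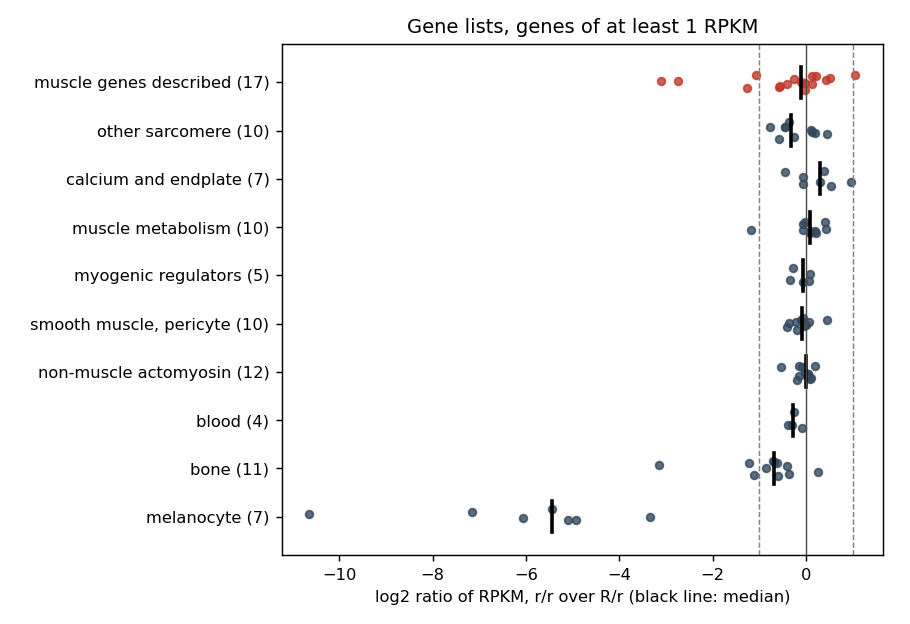
Log2 ratio of RPKM, r/r over R/r, of the compared genes (points, spread vertically for visibility) of the muscle genes described and of 9 other lists, with the number compared in brackets, the median as a black line and dashed lines at 2-fold. The muscle genes spread from -3.11 to 1.06 around a median of -0.10, the medians of the other muscle lists lie between -0.31 and 0.31, and the compared melanocyte and bone markers, SPP1 excepted, lie below 0.

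Most compared markers of bone, blood and melanocytes had log2 ratios below 0, as did MYPN, MYH1, TNNC1 and TNNT1. Of 11 bone markers, 10 had an interval below 0 and 1 above, against 14.6% and 11.2% of all features compared. Their summed level was 1058 RPKM in the heterozygous SV and 693 RPKM in the homozygous SV, and none was at 0. The extremes were MEPE (-3.14), COL1A1 (-1.21) and DMP1 (-1.11) at the lower end, and ALPL (-0.41), RUNX2 (-0.37) and SPP1 (0.27) at the upper end. Blood markers summed to 3043 and 2457 RPKM, with 3 of 4 compared intervals below 0, and none was at 0. The globin genes HBA and HBB had log2 ratios of -0.39 and -0.25, ALAS2, of haem synthesis, had -0.30, and AHSP, the globin chaperone, had -0.08. The listed melanocyte markers had TRPM1 (-10.64, -15.95 to -8.16), DCT (-7.17) and TYR (-6.06) at the lower end. At their upper end were SLC45A2 (-5.11), PMEL (-4.92) and EDNRB (-3.34). TYRP1, a melanosome enzyme, had 1 read in each library, and no other listed melanocyte marker was that low in the heterozygous SV. The part of bone, blood and melanocyte content in the ratios of the muscle genes was not tested.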

How the data were processed

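RNA from 1 Mitf R/r and 1 Mitf r/r SV sample was sequenced (paired reads of 100 bp). The authors aligned the reads to Sscrofa10.2 (TopHat2 2.0.7, per the submitters' processing notes) and deposited 1 RPKM value per feature and library. The counting program, its strand setting and the gene annotation are not given in the sources used here, and reads shared by near-identical genes could be assigned in more than 1 way. The deposited values also include 2 columns without headings, which hold the authors' own comparisons and were not used.

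Features were named by the deposited symbol, else by the gene description or the Ensembl name, and of features with 1 symbol in common the one of higher mean RPKM was taken. RefSeq annotation of Sscrofa11.1 served only for the order of genes. Log2 ratios were taken without a pseudocount for features above 0 in both libraries with at least 1 RPKM in 1 of them. The study's threshold of 2-fold was used.

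Reads were recovered from the RPKM values. The commonest ratio between low values, 1.11, held for 537 features and marked features of equal reads. The library totals taken were those that turned feature lengths into whole numbers. This held for 238 of 300 features, against 166 for the next best total. Reads were found for 99.8% of 20862 features, with a length of at least 100 bp and a multiple of at most 200. Each is the lowest whole number that fits the pair of values, and true reads may be a common multiple. Of the totals, 85.1% and 85.0% lay on features. In simulated data for r/r over R/r, 20325 features, 85.3% of the reads were exact and 96.9% of the intervals held the true ratio. The simulated reads held counting error only, which is the error that the interval assumes. Of 200 genes changed 4-fold, 99.5% were called in their direction. They were drawn from features with at least 100 reads, whereas compared muscle genes had as few as 53. A count of 0 was taken to allow 3 reads.

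The muscle genes, their classes and the 10 further lists were chosen with earlier results of these data known. All muscle genes are named. From each further list, the 3 lowest and 3 highest ratios among compared genes are named, with every gene of at least 10 RPKM where there were no more than 6. Genes cited for being at or near 0 were named outside this rule, after their values were seen. So were PAX3, PDGFRB, CLDN11, SLC12A2, COCH, KCNE1, KIR1.2, MITF, FRMD4B, MYBPC3 and RYR2. A result that the rule would name is not reported here. Alternatives were pseudocounts of 0.1 and 1 RPKM, no minimum and minimums of 5 and 10 RPKM, TPM, upper quartile and median scaling, 1.5-fold and 4-fold limits, the lowest of features sharing a symbol, and 99% intervals. Added after seeing the data were a minimum of 20 reads, the summed MYH6 and MYH7 features, and counts without uncertain features or troponins. The work was done in Python 3.11.15 (scipy 1.17.1, numpy 2.4.6, pandas 2.3.3), with plots by matplotlib 3.10.9.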

Additional observations from a re-analysis of the deposited data

How the results depend on the processing

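The count of 5 muscle genes at least 2-fold apart was 3 with a pseudocount of 1 RPKM or a minimum of 5 RPKM, 1 with a minimum of 10 RPKM, and 2 at 4-fold or with the interval wholly beyond 2-fold. It was also 3 without MYH1, MYH6 and MYH7, whose features are uncertain, and 6 with no minimum. The median of the striated and smooth class was -0.0150 with no minimum, which adds DES. The fast skeletal median became 0.0575 with minimums of 5 and 10 RPKM, which leave out MYH1, and the smooth muscle median became -0.06, which leaves out ACTA2. The cardiac or slow median was 0.79 without troponins and 0.52 with a minimum of 10 RPKM. Under the remaining alternatives the count of genes 2-fold apart was 5, that of intervals leaving out 0 was 9 and the medians kept their sign. No pan-striated gene was left at a minimum of 10 RPKM. Of 85 values of single genes, TPM1 changed sign under scaling by the median, and MYH1 (-1.46) and MYPN (-1.55) left their intervals with a pseudocount of 1 RPKM. Scaling moved all ratios by 0.04 or less. No paired analysis was possible because each genotype had 1 library.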

Other observations

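A feature described only as a fast-type myosin heavy chain (ENSSSCG00000018006) carried no gene name and was not among the muscle genes. It had 1.02 RPKM (5 reads) in the heterozygous SV and 0.454 RPKM (2 reads) in the homozygous SV, a log2 ratio of -1.17 (-4.56 to 1.44). A feature named MLC-2V, an older symbol of the ventricular light chain MYL2, was listed at 0 in both SVs. LAD1, which lies between TNNT2 and TNNI1 in the RefSeq order of Sscrofa11.1, had 2.91 and 2.52 RPKM (-0.21, -0.64 to 0.22).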
